A study of Mus musculus with 16 samples.

Results

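RNA sequencing of labelled medullary thymic epithelial cells (mTEC) of the mouse was compared between cells with low and cells with high surface MHC class II. The members are all genes that passed a filter on low counts, 19617 of the 43432 listed, read in 8 of the 16 libraries. The mice, of strain C57BL6.Aire-CreERT2.Ai14, carried a tamoxifen-inducible Cre driven by Aire and the Ai14 reporter, whose red fluorescent protein (RFP) is switched on for good once Cre has acted. Tamoxifen was given at 2 mg to males and females of 5 to 6 weeks of age, followed by a chase of 7 days. RFP+ cells thus had active Aire-driven Cre near the time of tamoxifen or descend from such cells. Live cells (DAPI-) without CD45, which marks blood cells, and with EPCAM, which marks epithelium, were split by surface MHC class II. The groups compared are RFP+ MHCIIlo and RFP+ MHCIIhi, with 4 libraries each, every library from 12 pooled thymi. RFP- MHCIIlo and RFP- MHCIIhi cells of mice of the same strain and treatment, also 4 libraries each, serve as the reference for the same gate without the label. RFP- cells may have expressed Aire outside the pulse.

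As background, mTEC pass through a mature stage with abundant MHC class II, co-stimulatory ligands and Aire, in which they display proteins of other tissues to developing T cells. Aire is a transcriptional regulator that releases expression of many tissue-restricted genes. Some cells later lose Aire and MHC class II and acquire programmes that resemble peripheral cell types, such as tuft cells, keratinocytes, microfold cells, ciliated cells and neuroendocrine cells. The comparison here asks which genes are lower and which are higher in labelled cells that have low MHC class II.

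The RFP+ MHCIIhi libraries held 11.95 to 17.63 M counted reads from 129500 to 164000 sorted cells, and the RFP+ MHCIIlo libraries 7.93 to 12.93 M from 19400 to 20500 cells. Log2 levels of RFP+ MHCIIlo libraries correlated with each other at 0.9495 to 0.9674 and those of RFP+ MHCIIhi libraries at 0.9853 to 0.9894, so the low gate was the more variable. A pair of RFP+ MHCIIlo libraries stood apart. Replicate 1 lay at -57.23 on the leading principal component against -32.24 to -35.08 for the other 3, with the lowest summed MHC class II level (3018 against 4520 to 5763 CPM, reads scaled to a common library total). Replicate 4 had the highest summed level of mitochondrially encoded genes (17100 against 11680 to 12650 CPM) and 38.53% of its reads on mitochondrial ribosomal RNA, against 31.398 to 33.312% in the other 3. With both left out, 4466 of the genes called higher with all libraries and 4675 of those called lower were still called, 82.8% and 84.9%. Reads on genes like nuclear ribosomal RNA took 1.586 to 2.238% in the RFP+ MHCIIhi and 2.532 to 5.136% in the RFP+ MHCIIlo libraries, without overlap and highest in MHCIIlo replicate 1. Their part in the results was not tested. P-values measure the spread between pools of thymi.

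In this comparison 10900 genes (55.6%) passed an adjusted p of 0.05 in edgeR's quasi-likelihood test, 5393 of them higher in RFP+ MHCIIlo (27.5% of the genes tested) and 5507 lower (28.1%). Changes are given as log2 of RFP+ MHCIIlo over RFP+ MHCIIhi, and genes are said to have risen or fallen only when they passed this test. The counts of list members given further on for this contrast stand against these shares of 27.5% and 28.1%. The median of all tested genes was 0.007. The numbers called were almost even, but the sizes were not. More than 2-fold changes were called for 2008 genes that rose and 3148 that fell, changes of more than 3 log2 units for 35 and 702, and changes of more than 4 log2 units for 0 and 273. The largest falls are sharper than the largest rises in the plot of level against difference. All 4 libraries lay above all 4 of the other side for 4411 genes (22.5%) in RFP+ MHCIIlo and for 4813 (24.5%) in RFP+ MHCIIhi.

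**Figure D1:**
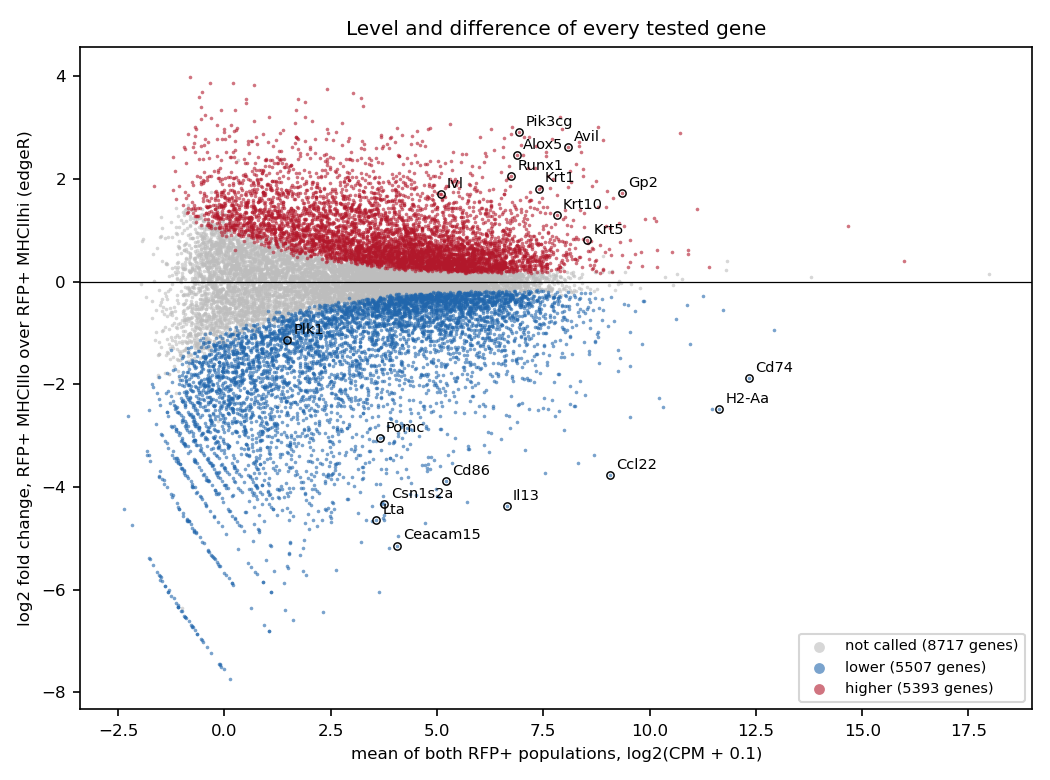
Each point is 1 of 19617 genes, with the mean level of both RFP+ populations as log2(CPM + 0.1) on the x axis and the log2 fold change of RFP+ MHCIIlo over RFP+ MHCIIhi on the y axis; red and blue mark genes called higher (5393) and lower (5507). Falls reach changes beyond 4 log2 units, where 273 genes were called, and no called rise is past 4.

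What was lower is given next, beginning with the gate itself. The sort was made on MHC class II protein, so the class II genes describe the gate and are no finding. All 11 fell, with a median log2 change of -2.47, and summed to 2.098e+04 to 2.229e+04 CPM in RFP+ MHCIIhi and 3018 to 5763 CPM in RFP+ MHCIIlo. H2-Aa, which encodes a chain of the class II dimer, changed by -2.49, H2-Ab1, the partner chain, by -2.47, the invariant chain gene Cd74 by -1.88 and H2-Eb2 by -3.21, the largest fall of the list. Ciita, the master regulator of class II transcription, had levels of 113, 112, 108 and 122 CPM in RFP+ MHCIIhi replicates 1 to 4 and of 19.0, 20.0, 23.6 and 23.7 CPM in RFP+ MHCIIlo. Class II promoters share a module of which the Y box is a part, and the letters CTGATTGG or their reverse complement occur within 250 bases before the start of 4 of 8 class II promoters, against 4.99% of 14004 promoters of tested genes. Shown are 100 bases of 2 of them, on the gene's strand from 5′ to 3′ in RefSeq's GRCm38.p6, chr17:34287824-34287923 on the minus strand and chr17:34305759-34305858 on the plus strand, with the Y box letters in capitals.
H2-Aa: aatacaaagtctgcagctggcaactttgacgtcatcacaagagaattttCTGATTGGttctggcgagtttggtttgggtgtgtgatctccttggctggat
H2-Eb1: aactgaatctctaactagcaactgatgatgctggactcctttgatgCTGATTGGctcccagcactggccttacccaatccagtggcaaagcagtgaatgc

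Co-stimulatory ligands, which give T cells the signal that goes with antigen, were lower in most cases. Of 18 tested, 4 rose and 11 fell, with a median of -1.72. Cd86 (ENSMUSG00000022901, chr16:36603869-36666081), a ligand of CD28 and CTLA-4, was measured at 67.1, 58.6, 71.5 and 79.9 CPM in RFP+ MHCIIhi replicates 1 to 4 and at 1.84, 4.51, 7.06 and 5.14 CPM in RFP+ MHCIIlo replicates 1 to 4. Every MHCIIlo library lay far below every MHCIIhi library, and the change was -3.89 ± 0.22 (SE), adjusted p = 1.63e-12. The other ligand of the pair, Cd80, changed by -2.23, and Cd40, through which T cells license mTEC, by -3.18. Cd70, Tnfsf9 and Icosl, ligands for CD27, 4-1BB and ICOS on T cells, changed by -3.62, -2.88 and -2.20. Checkpoint ligands split. Cd274, which encodes PD-L1, changed by -0.88 and Pdcd1lg2, which encodes PD-L2, by -1.94, while Vtcn1 (1.74), Vsir (0.80), Lgals9 (0.64) and Nectin2 (0.35) rose. Vtcn1 and Vsir encode inhibitory ligands of the B7 family, and both stayed low, at 1.90 and 6.39 CPM for Vtcn1 and 6.63 and 11.5 CPM for Vsir in MHCIIhi and MHCIIlo.

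Chemokines that draw T cells and dendritic cells were mostly lower. Of 26 chemokine ligands tested, 5 rose and 18 fell, with a median of -2.01. Ccl22 (ENSMUSG00000031779, chr8:94745590-94751699), a ligand of CCR4 on thymocytes, stood at 944, 947, 1036 and 1097 CPM in RFP+ MHCIIhi and at 57.9, 82.0, 84.0 and 71.3 CPM in RFP+ MHCIIlo, a change of -3.77 ± 0.21 (SE), adjusted p = 1e-12. Ccl17, the other CCR4 ligand, changed by -3.69, Ccl5 by -3.73 and Xcl1, which attracts XCR1+ dendritic cells, by -4.32, the largest fall of the list. The CXCR3 ligands moved together: Cxcl9 changed by -2.52, Cxcl10 by -2.43 and Cxcl11 by -2.64. The members that rose were Ccl20 (1.09), Ccl6 (1.34), Ccl9 (0.83), Cxcl17 (1.03) and Cxcl14 (0.49). Ccl20, the CCR6 ligand made by epithelium over lymphoid follicles, had 182 and 388 CPM on average in MHCIIhi and MHCIIlo. Cxcl14 lost its call in 10 of the 26 alternatives.

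Il13, Il12a and Lta, which encode cytokines of lymphocytes or antigen-presenting cells, fell steeply. Il13 (ENSMUSG00000020383, chr11:53631324-53634702), best known as a type 2 cytokine of lymphocytes, was read at 195, 173, 183 and 209 CPM in RFP+ MHCIIhi and at 4.11, 15.2, 13.5 and 4.56 CPM in RFP+ MHCIIlo. Replicates 1 and 4 were the low pair within MHCIIlo, no MHCIIlo library came near the MHCIIhi range, and the change was -4.38 ± 0.26 (SE), adjusted p = 1.92e-12. Il12a, a subunit of interleukin 12, fell from 81.7, 93.4, 102 and 121 CPM to 0.324, 7.43, 6.23 and 6.22 CPM. Replicate 1 of MHCIIlo was far below the other 3. Lta, which encodes lymphotoxin alpha, changed by -4.65.

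Class I presentation fell less steeply but across nearly the whole list. Of 17 genes of MHC class I and the immunoproteasome, 0 rose and 16 fell, with a median of -0.47. H2-K1, a class I heavy chain, had a mean ± SD of 4007 ± 277 CPM in MHCIIhi and 2719 ± 179.6 CPM in MHCIIlo (n = 4 each), and B2m, its light chain, 10151 ± 942 CPM in MHCIIhi and 5303 ± 668 CPM in MHCIIlo. The immunoproteasome and its activator were unevenly affected: Psmb10 changed by -1.48, Psme2 by -1.47 and Psmb8 by -0.84, but Psmb9 only by -0.35 ± 0.11 (SE), adjusted p = 0.00932. Psme1, of the activator, had means of 254 and 127 CPM in MHCIIhi and MHCIIlo. Tap1, a subunit of the peptide transporter, changed by -0.26, and without RFP+ MHCIIhi replicate 4 it no longer passed (-0.20, adjusted p = 0.0703). Among 17 lysosomal genes of antigen processing, 2 rose and 8 fell. Ctss, the protease that trims the invariant chain in professional antigen-presenting cells, changed by -1.53, Ifi30, a lysosomal thiol reductase, by -1.24, Lamp3 by -1.90 and Ctsh, an aminopeptidase, by -0.21 (-0.19, adjusted p = 0.0538, without RFP+ MHCIIlo replicates 1 and 4), while Ctsd rose by 0.84. Ctsl and Lgmn, proteases that also cleave the invariant chain or antigens, had means of 184 and 193 CPM and 11.5 and 9.99 CPM in MHCIIhi and MHCIIlo and did not pass the test.

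Signalling through RANK and CD40 maintains the mature stage, and genes of that pathway were mostly lower. Of 19, 3 rose and 15 fell, with a median of -0.71. Tnfrsf11a, which encodes RANK, changed by -0.71, the alternative NF-kB subunits Relb and Nfkb2 by -1.12 and -1.10, and the inhibitor genes Nfkbia and Nfkbie by -1.22 and -1.25. The 3 that rose were Ltbr (0.40), the lymphotoxin beta receptor, Rela (0.21), which lost its call in 18 of 26 alternatives, and Tnfaip3 (0.58), a deubiquitinase that restrains NF-kB.

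Aire and its partners did not fall together. Of 18 genes that regulate antigen expression, 9 rose and 5 fell. Beside Aire (-3.53), the falls were Sirt1 (-2.50), a deacetylase that acts on Aire, Irf4 (-2.42), Irf8 (-2.36) and Fezf2 (-1.41), a regulator of Aire-independent antigens. Irf4 stood at 130.2, 131, 144 and 128 CPM in RFP+ MHCIIhi and at 14.5, 21.9, 26.4 and 36.1 CPM in RFP+ MHCIIlo, without overlap. Genes of proteins known to act with Aire rose by small amounts, among them Chd4 (0.45), Hipk2 (0.50) and Xrcc5 (0.60). Prdm1, which encodes Blimp-1, changed by 0.96 and Spib, an Ets factor, by 1.05.

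Most tested members of the Aire-dependent antigen and peptide hormone lists were lower. Among 11 antigen genes whose expression needs Aire, 0 rose and 10 fell, with a median of -2.77. Csn1s2a fell most (-4.34 ± 0.20 (SE), adjusted p = 8.72e-14), and Tff3, a trefoil peptide with means of 52.6 and 66.7 CPM in MHCIIhi and MHCIIlo, did not pass the test. Csn1s2a, a milk casein (ENSMUSG00000061937, chr5:87774567-87788797), was read at 27.5, 21.8, 27.1 and 26.2 CPM in RFP+ MHCIIhi and at 1.08, 1.34, 1.97 and 0.746 CPM in RFP+ MHCIIlo. Of 30 peptide hormones tested, 2 rose and 27 fell, with a median of -3.08. Members of both lists that are low in MHCIIlo passed the filter mainly through MHCIIhi libraries. Tac1, with 24.9 and 1.18 CPM on average in MHCIIhi and MHCIIlo, is an example. This limits what the counts and medians of both lists show. All 32 listed hormone genes summed to 942.3 to 1266 CPM in RFP+ MHCIIhi and 304.6 to 435.8 CPM in RFP+ MHCIIlo. The pituitary precursor Pomc was at 21.8, 19.3, 21.2 and 26.4 CPM in RFP+ MHCIIhi and at 2.38, 2.92, 3.53 and 1.99 CPM in RFP+ MHCIIlo, and no library of either side came within the range of the other. Ins2, an insulin gene, changed by -2.77, Calca, the calcitonin gene, by -3.26 and Tac1, the substance P precursor, by -4.30. Gcg, the glucagon gene, had levels of 29.5, 21.1, 30.7 and 30.4 CPM in RFP+ MHCIIhi and 11.4, 31.1, 13.3 and 19.2 CPM in RFP+ MHCIIlo. The groups overlapped through MHCIIlo replicate 2, and the change of -0.58 lost its call when any of 5 single libraries was left out, down to -0.41 (adjusted p = 0.134) without MHCIIlo replicate 1. The hormone genes that rose were Ghrl, which encodes ghrelin (13.9 to 45.1 CPM, 1.69), and Iapp, which encodes amylin (69.5 to 141 CPM, 1.02).

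Secretory and liver antigens held exceptions. Of 27 milk and salivary genes 4 were too low to test. Of the other 23, 2 rose and 15 fell, with a median of -1.91. Of 27 liver plasma protein genes, 6 rose and 18 fell, with a median of -1.39. Members low in MHCIIlo, such as Glycam1 and Fgg, passed the filter mainly through MHCIIhi libraries, which limits these counts and medians. The 27 milk and salivary genes summed to 2870 to 3323 CPM in RFP+ MHCIIhi and 2943 to 3338 CPM in RFP+ MHCIIlo, with overlap. The liver genes summed to 603.7 to 632.1 CPM in RFP+ MHCIIhi and 380.7 to 471.7 CPM in RFP+ MHCIIlo. Csn2, a casein, fell from 938, 896, 837 and 1040 CPM to 205, 341, 354 and 416 CPM and so stayed abundant in MHCIIlo. Mucl1 changed by -2.42 and Csn3 by -0.97, and Glycam1, a mucin of milk, was read at 1.79, 1.11, 2.14 and 3.16 CPM in RFP+ MHCIIhi but in only 1 MHCIIlo library, at 0.122 CPM. Ltf, which encodes lactoferrin, rose from 44.0 to 151 CPM on average (1.78), and Wfdc18 rose by 0.53 to 2188, 2200, 2291 and 2317 CPM. Albumin (Alb, -4.24) and the fibrinogen chains Fga (-4.12) and Fgg (-6.05) fell steeply and transthyretin (Ttr, -0.50) little, while Rbp4, Hp and Fetub, which encode retinol-binding protein, haptoglobin and fetuin B, rose by 1.59, 1.16 and 0.89. These exceptions were chosen after their values were seen.

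Promoters of genes that fell held fewer CpG dinucleotides, the sites of DNA methylation in mammals, than those of genes that rose. Over the 250 bases before the start in RefSeq's GRCm38.p6, 14004 tested genes had a promoter entry, with a median of 13 CpG. The median was 10 for all genes that fell, 15 for all that rose and 14 for genes not called, and at most 2 CpG were found in 18.1%, 9.5% and 9.7% of these promoters. Among genes that changed more than 2-fold both sides held fewer, with a median of 5 and at most 2 CpG in 27.1% for those that fell, and a median of 10 and 16.6% for those that rose. The letters CAAAGTCCA of the HNF4 site, known from liver genes, or their reverse complement occur in 0 of 23 promoters of the liver list and 1 of 25 of the intestinal list, against 0.407% of all 14004. To show the range, 4 promoters follow whole, on the gene's strand from 5′ to 3′ with each CpG in capitals: Csn1s2a (chr5:87774200-87774449, plus strand, 0 CpG), Fgg (chr3:83007474-83007723, plus strand, 4), Sh2d6, a signalling adaptor gene of tuft cells that rose by 3.20 (chr6:72520037-72520286, minus strand, 5), and Top1, a topoisomerase gene that did not pass the test (chr2:160645647-160645896, plus strand, 20).
Csn1s2a: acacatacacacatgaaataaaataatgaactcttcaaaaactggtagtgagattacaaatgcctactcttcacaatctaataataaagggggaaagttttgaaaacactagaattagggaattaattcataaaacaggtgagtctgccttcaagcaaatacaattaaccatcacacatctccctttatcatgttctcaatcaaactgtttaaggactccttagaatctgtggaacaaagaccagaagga
Fgg: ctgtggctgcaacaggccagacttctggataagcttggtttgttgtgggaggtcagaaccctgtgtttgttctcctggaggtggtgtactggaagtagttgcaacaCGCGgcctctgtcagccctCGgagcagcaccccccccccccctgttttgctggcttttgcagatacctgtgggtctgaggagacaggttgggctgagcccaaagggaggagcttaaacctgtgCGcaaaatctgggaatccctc
Sh2d6: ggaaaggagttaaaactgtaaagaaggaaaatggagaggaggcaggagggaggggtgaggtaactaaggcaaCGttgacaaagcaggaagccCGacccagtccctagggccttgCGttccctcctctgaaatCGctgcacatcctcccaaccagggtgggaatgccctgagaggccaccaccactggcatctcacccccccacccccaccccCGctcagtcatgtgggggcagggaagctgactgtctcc
Top1: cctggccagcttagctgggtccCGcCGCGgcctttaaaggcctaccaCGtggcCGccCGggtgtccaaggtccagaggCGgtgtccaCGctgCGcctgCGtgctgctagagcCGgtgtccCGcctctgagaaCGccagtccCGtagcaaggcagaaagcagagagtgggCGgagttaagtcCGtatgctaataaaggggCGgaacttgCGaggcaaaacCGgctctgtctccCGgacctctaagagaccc

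The other large falls belong to many tissues. Gstm3, a glutathione transferase gene, had 30.2, 28.9, 26.8 and 27.6 CPM in RFP+ MHCIIhi and 0.216, 1.10, 0.519 and 1.16 CPM in RFP+ MHCIIlo (-5.20 ± 0.19 (SE), adjusted p = 7.07e-15). Ceacam15 (-5.14), Cytl1 (-4.96) and Ucma (-4.61), of which Cytl1 and Ucma are known from cartilage, were of the same order. Crhbp, which encodes the binding protein of corticotropin-releasing hormone, changed by -4.70, Rln3, a relaxin, by -4.34, Klk4, a protease of tooth enamel, by -4.54, Hba-x, an embryonic globin, by -4.64 and Idi2, an isoprenoid enzyme, by -4.67. Over Ceacam15, Cytl1, Ucma, Crhbp, Rln3, Klk4, Hba-x and Idi2 the MHCIIlo libraries ranged from 0 to 3.15 CPM and the MHCIIhi libraries from 20.3 to 61.3 CPM. Of 20 muscle genes 2 rose and 11 fell. The fetal myosins Myh3 (-3.65) and Myh8 (-3.33) fell, as did Chrna1, a subunit of the muscle acetylcholine receptor (-0.95). Cdh15 and Myod1, of muscle precursors, were low, at 1.79, 2.33, 0.988 and 2.25 CPM and 0.468, 0.992, 0.384 and 0.351 CPM in RFP+ MHCIIhi, and had at most 3 reads over the 4 MHCIIlo libraries. Actc1, cardiac actin, had means of 10.2 and 8.39 CPM in MHCIIhi and MHCIIlo and did not pass the test. The myogenic factor Myog (1.41) and skeletal actin Acta1 (1.51) rose.

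Cell division genes were lower in labelled cells with low MHC class II. Of 21 mitotic genes, 0 rose and 20 fell, with a median of -1.36, and of 21 genes of DNA replication, 2 rose and 13 fell, with a median of -0.59. Mki67, the proliferation marker, was at 86.8, 87.7, 88.1 and 89.4 CPM in RFP+ MHCIIhi and at 10.5, 25.8, 43.6 and 34.5 CPM in RFP+ MHCIIlo, with replicate 1 of MHCIIlo lowest. Top2a changed by -1.27, Cdk1 by -1.65, Ccnb1, a mitotic cyclin, by -1.16 and the spindle checkpoint kinase Ttk by -2.29. In the replication list Mcm10 fell most (-1.44), Pcna changed by -0.33 and Rrm2 by -0.75, while Mcm2 (8.37 and 7.81 CPM in MHCIIhi and MHCIIlo) and Cdc6 (1.57 and 1.46 CPM) did not pass the test. Cdt1, which licenses replication origins, rose (0.90), but not without MHCIIlo replicate 4 (0.42, adjusted p = 0.0561). Without RFP+ MHCIIlo replicates 1 and 4, 16 mitotic and 11 replication genes were called lower, with Ccnb1 (-0.67, adjusted p = 0.108) and Rrm2 (-0.51, adjusted p = 0.0807) not among them. Ccnb1 was not called by limma-voom either (adjusted p = 0.0576). Among 7 inhibitors of cyclin-dependent kinases, 3 rose and 2 fell: Cdkn1a, which encodes p21, stood at 344, 311, 336 and 298 CPM in RFP+ MHCIIhi and at 502, 444, 394 and 408 CPM in RFP+ MHCIIlo (0.44 ± 0.10 (SE), adjusted p = 0.000985), and Cdkn1b changed by 0.62. Cdkn2a changed by 0.67, which was not called without MHCIIhi replicate 4 (adjusted p = 0.051) or MHCIIlo replicate 4 (adjusted p = 0.0629), and Cdkn2c by -0.37, not called when any of 5 single libraries was left out. Cdkn1c, at 209.9 and 221 CPM on average, did not pass the test. Of 20 BCL2 family genes that govern cell survival, 3 rose and 9 fell, the survival gene Bcl2l1 falling most (-1.18) and Bik, a death-promoting member, rising most (0.69). Bcl2 changed by 0.24, but was not called without MHCIIhi replicate 1 or MHCIIlo replicate 1 (adjusted p = 0.0595 and 0.0572). Mcl1 (217 and 190.5 CPM on average) did not pass the test.

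What was higher was led by the tuft programme. Tuft cells are chemosensory epithelial cells that use the taste transduction cascade and release interleukin 25, leukotrienes and acetylcholine. Of 25 regulators and identity genes, 24 rose and 0 fell, with a median of 2.00, and of 11 genes of taste transduction, 10 rose and 1 fell, with a median of 2.34. The factor Runx1 (ENSMUSG00000022952, chr16:92601466-92826149) stood at 46.9, 43.5, 37.3 and 38.7 CPM in RFP+ MHCIIhi and at 197, 171, 159.5 and 162 CPM in RFP+ MHCIIlo, with no overlap and a change of 2.05 ± 0.11 (SE), adjusted p = 1.02e-12. Pou2f3, the master regulator, changed by 1.58, Gfi1b by 0.99, Ascl2 by 1.40, Hmx2 by 1.82 and Hmx3 by 2.26. Avil, which bundles actin in the tuft, changed by 2.63, Espn, another bundler, by 2.00 and the kinase gene Bmx by 2.53.

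The steps of the cascade rose unevenly. Gnat3, the taste G protein alpha subunit, changed by 2.97, its partners Gnb3 and Gng13 by 2.65 and 2.12, Plcb2, the phospholipase, by 2.65, and Trpm5, the cation channel at the end, by 2.73. Itpr3, the calcium release channel between phospholipase and Trpm5, rose from 67.8, 65.5, 63.3 and 60.6 CPM to 101, 79.8, 86.4 and 72.1 CPM only (0.40 ± 0.10 (SE), adjusted p = 0.00223), and Kcnk6, a potassium channel gene, changed by -1.26. Pik3cg (ENSMUSG00000020573, chr12:32173473-32208659), a phosphoinositide kinase gene among the largest risers, was at 34.5, 26.7, 25.6 and 28.1 CPM in RFP+ MHCIIhi and at 278, 178, 196 and 212 CPM in RFP+ MHCIIlo, with replicate 1 highest on both sides. Of 38 taste receptor genes 10 were too low to test, and the 38 summed to 35.79 to 46.61 CPM in RFP+ MHCIIhi and 216.1 to 313.7 CPM in RFP+ MHCIIlo. The 28 tested passed the filter mainly through the MHCIIlo libraries in which they are high, so their count and median carry no weight. Their changes ran from 1.94 for Tas1r1 to 3.83 for Tas2r106. Tas1r3, a chain of the sweet and umami receptors, changed by 1.95, and the bitter receptor genes Tas2r105 and Tas2r143 by 2.73 and 3.40. Tas2r106 stood at 0.0780, 0.175, 0.220 and 0.281 CPM in RFP+ MHCIIhi and at 3.46, 2.92, 2.70 and 2.32 CPM in RFP+ MHCIIlo.

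Tuft effectors moved both ways. Of 18 effector and receptor genes, 11 rose and 4 fell. Enzymes of leukotriene synthesis were among those that rose: Alox5 (ENSMUSG00000025701, chr6:116410077-116461178), 5-lipoxygenase, was at 43.6, 35.6, 30.2 and 35.2 CPM in RFP+ MHCIIhi and at 224, 185, 211 and 178 CPM in RFP+ MHCIIlo (2.47 ± 0.13 (SE), adjusted p = 5.56e-13), its activating protein Alox5ap changed by 2.67 and the synthase Ltc4s by 1.43. The prostaglandin enzymes Ptgs1 and Hpgds changed by 2.44 and 0.54, and Chat, which makes acetylcholine, by 2.70. Il25 reached 10.1, 11.2, 13.0 and 8.54 CPM in RFP+ MHCIIlo. Pla2g4a, the phospholipase that frees arachidonic acid for both pathways, fell from 93.2, 95.0, 108 and 106 CPM to 45.2, 37.0, 35.6 and 42.8 CPM (-1.32). Cysltr2, a leukotriene receptor gene, changed by -1.10, Il4ra by -0.41 and Tslp by -0.84.

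Pou2f3 belongs to the octamer-binding factors, and the octamer ATGCAAAT was searched on both strands of the 250 bases before each start. It occurs in 6 of 42 promoters of the 3 tuft lists (14.3%) and in 1.52% of 14004 promoters of tested genes. The regulator and identity list held it in 1 of 20 (5.0%). Of the 6, Rgs21, Itpr3, Kctd12 and Hpgds rose, Il4ra fell and Sucnr1 did not pass the test (2.38 and 3.81 CPM on average in MHCIIhi and MHCIIlo). Such a match is a description of the letters and no measured binding. Shown for the 4 that rose are 100 bases around the match in RefSeq's GRCm38.p6, on the gene's strand from 5′ to 3′ with the octamer or its reverse complement in capitals: Rgs21 (3.08) at chr1:144567814-144567913, minus strand, Itpr3 at chr17:27057204-27057303, plus strand, Kctd12 (0.34) at chr14:102982744-102982843, minus strand, and Hpgds at chr6:65144851-65144950, minus strand. The matches begin 200, 27, 160 and 174 bases before the start.
Rgs21: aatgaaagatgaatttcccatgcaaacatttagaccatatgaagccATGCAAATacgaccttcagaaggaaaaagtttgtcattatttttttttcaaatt
Itpr3: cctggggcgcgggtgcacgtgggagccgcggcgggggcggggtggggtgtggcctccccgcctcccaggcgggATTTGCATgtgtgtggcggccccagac
Kctd12: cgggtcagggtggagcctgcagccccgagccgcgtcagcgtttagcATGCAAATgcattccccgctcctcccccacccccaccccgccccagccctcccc
Hpgds: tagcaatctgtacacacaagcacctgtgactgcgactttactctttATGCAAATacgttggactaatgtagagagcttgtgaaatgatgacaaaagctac

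Genes of the upper layers of skin were more often higher than lower. Of 21 suprabasal keratinocyte genes, 14 rose and 3 fell, of 42 cornified envelope genes, 20 rose and 10 fell, and of 19 genes of the lipid barrier, 14 rose and 0 fell, with medians of 0.62, 0.37 and 0.57. Krt10 (ENSMUSG00000019761, chr11:99385254-99389364), the keratin of cells that have left the basal layer, was at 152, 135, 132 and 101 CPM in RFP+ MHCIIhi and at 414, 321, 333 and 209.5 CPM in RFP+ MHCIIlo. Replicate 4 was lowest and replicate 1 highest on both sides, and the groups did not overlap (1.29 ± 0.17 (SE), adjusted p = 7.41e-07). Its partner Krt1 changed by 1.81, and Sbsn and Dmkn, secreted proteins of the same layers, by 1.56 and 1.39. The envelope proteins Ivl and Lor, involucrin and loricrin, changed by 1.71 and 1.83 and the crosslinking enzyme Tgm1 by 0.79. Abca12, the lipid transporter of lamellar granules, led the lipid list (17.3 to 67.6 CPM, 1.96), and Aloxe3 and Cers3, enzymes of barrier lipids, changed by 0.57 and 1.44.

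The 10 cornified envelope genes that fell, 23.8% of the list against 28.1% of all tested genes, were Lce1m, Lce3a (-2.10), Sprr3, Tchh (-0.45), Tchhl1 (-0.75), Hal, Tgm3, Tgm5, Klk5 and Klk12, of which Tchhl1 lost its call in 7 of the 26 alternatives. Sprr3, a small proline-rich protein, had 1.88 and 0.489 CPM on average in MHCIIhi and MHCIIlo. Of the suprabasal list Serpinb12 fell from 147, 129.8, 131 and 129 CPM to 32.3, 39.6, 40.2 and 37.3 CPM (-1.85). Hal, the histidase that acts on filaggrin products, changed by -0.88, the crosslinkers Tgm3 and Tgm5 by -0.87 and -1.09. Lce1m, a late envelope protein, was at 2.57, 1.98, 2.36 and 2.60 CPM in RFP+ MHCIIhi and 0, 0, 1.45 and 0.166 CPM in RFP+ MHCIIlo, and Klk5 and Klk12, skin proteases, changed by -1.64 and -2.12, while the neighbouring proteases Klk7 (1.00), Klk10 (1.31) and Klk13 (1.36) rose. Kallikrein genes are similar in sequence, and shared reads make single values less certain. Of 19 transcription factors of keratinocyte differentiation, 8 rose and 6 fell, with Klf4 (1.25), Ehf (1.22) and Tfap2a (1.04) the largest rises and Tfap2c (-1.12) the largest fall. Grhl3 changed by -0.42 and Zfp750 by -0.31. Filaggrin (Flg, 2.11 and 2.91 CPM in MHCIIhi and MHCIIlo), the lipoxygenase Alox12b (30.5 and 28.8 CPM) and the factor Ovol1 (25.4 and 22.5 CPM) did not pass the test.

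AP-1 sites are well known in promoters of these skin genes. The site TGAGTCA or its reverse complement occurs in 8 of 51 promoters of the suprabasal and cornified lists (15.7%) and in 3.73% of all 14004. Shown are 100 bases with the site in capitals, on the gene's strand from 5′ to 3′ in RefSeq's GRCm38.p6, for 4 genes that rose: Krtdap (1.64), a secreted differentiation protein, at chr7:30787777-30787876, plus strand; Ivl at chr3:92573799-92573898, minus strand; Lor at chr3:92083143-92083242, minus strand; and Sprr1a (1.21), a small proline-rich envelope protein, at chr3:92485945-92486044, minus strand, whose promoter holds 2 matches. A match is no measured binding, and whether AP-1, which is formed by Fos and Jun proteins, acts on these genes was not tested. Of 12 immediate-early and heat shock genes, 9 rose and 2 fell: Fos changed by 1.07, Jun by 1.10, Fosb by 1.22 and Egr1 by 0.82, and the heat shock gene Hspa1a by -0.32. Without RFP+ MHCIIhi replicate 4 Hspa1a was not called (-0.25, adjusted p = 0.0662). Such genes also respond to tissue digestion and sorting, whose part in the result was not tested.
Krtdap: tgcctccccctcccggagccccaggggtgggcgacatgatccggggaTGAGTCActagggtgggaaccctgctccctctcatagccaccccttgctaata
Ivl: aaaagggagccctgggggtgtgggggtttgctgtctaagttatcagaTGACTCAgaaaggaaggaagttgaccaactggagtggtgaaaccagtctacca
Lor: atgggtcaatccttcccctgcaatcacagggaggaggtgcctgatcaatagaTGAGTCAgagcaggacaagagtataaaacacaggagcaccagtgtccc
Sprr1a: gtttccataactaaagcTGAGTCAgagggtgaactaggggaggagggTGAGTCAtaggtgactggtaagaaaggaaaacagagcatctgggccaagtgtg

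**Figure D2:**
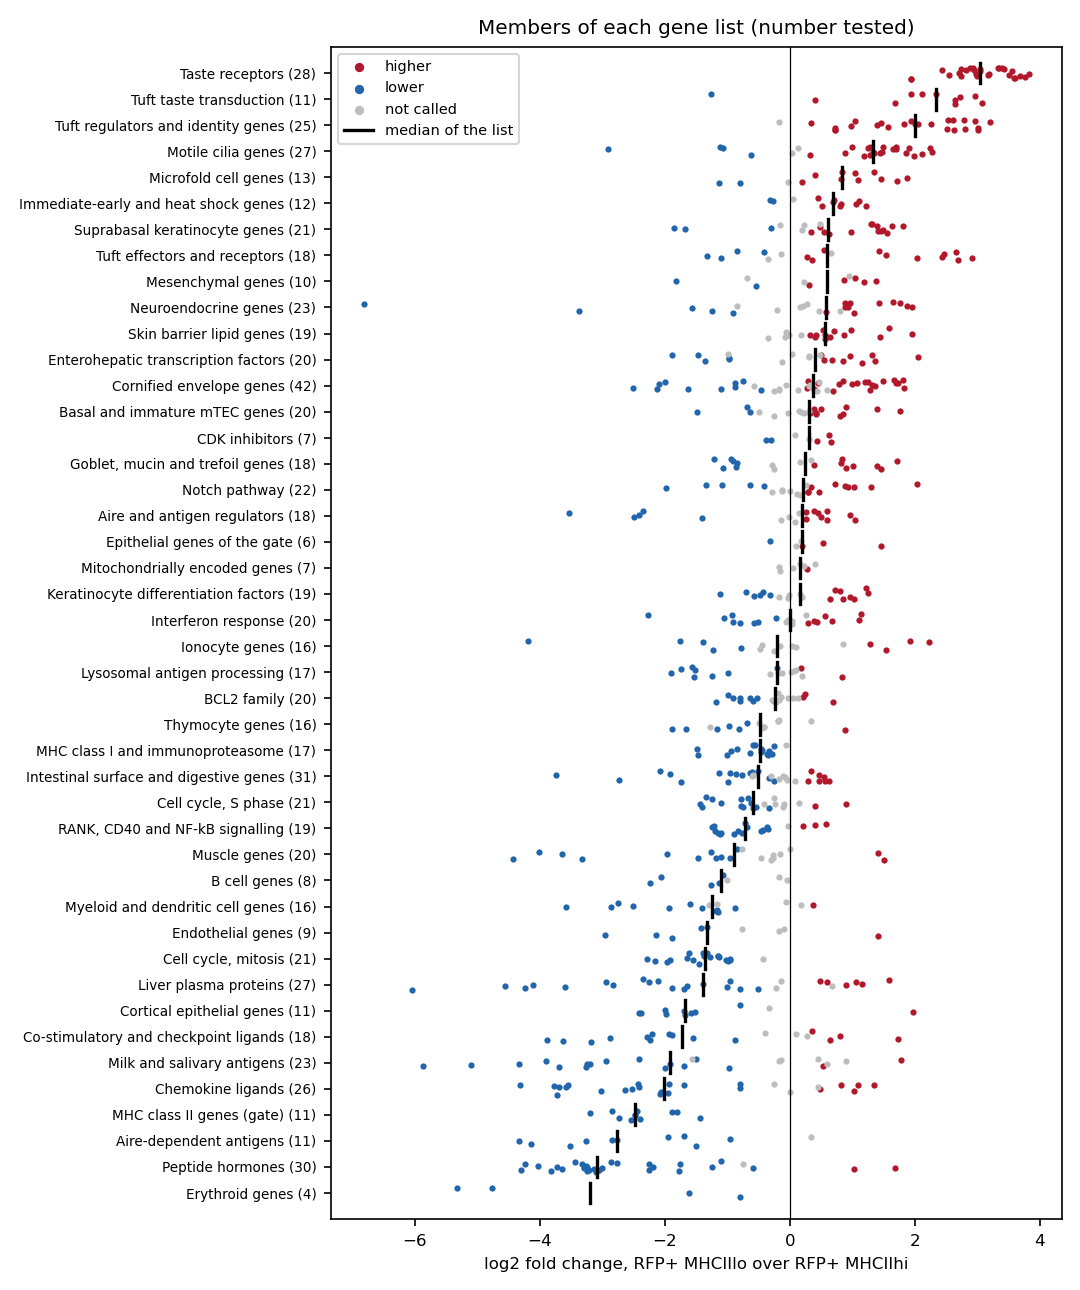
Each point is a tested member of the list named on the y axis (number tested in brackets), placed at its log2 fold change of RFP+ MHCIIlo over RFP+ MHCIIhi on the x axis; red and blue mark members called higher and lower, and the black bar is the median of the list. The median of taste transduction genes is 2.34, of tuft regulators 2.00 and of peptide hormones -3.08. Taste receptors (28 of 38) entered mainly through the MHCIIlo libraries in which they are high. Hormone and other antigen genes that are low in MHCIIlo, such as Tac1, entered mainly through the MHCIIhi libraries.

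Most motile cilia genes rose, while Gmnc and Mcidas, early regulators of the ciliated fate, fell. Of 27 genes, 21 rose and 4 fell, with a median of 1.33. Foxj1 (ENSMUSG00000034227, chr11:116330704-116335399), the factor that drives motile ciliogenesis, was at 51.0, 45.7, 42.9 and 37.8 CPM in RFP+ MHCIIhi and at 110.1, 105, 114 and 102 CPM in RFP+ MHCIIlo with a wide gap between the groups (1.28 ± 0.10 (SE), adjusted p = 2.05e-10). Parts of the cilium rose with it: Dnah5, a dynein arm chain (2.24), Rsph1 and Rsph4a, radial spoke proteins (1.86 and 2.12), Hydin of the central pair (1.19) and Fam183b, the largest riser (2.28). Rfx2 and Rfx3, factors that act with Foxj1, changed by 0.88 and 1.45. In contrast Gmnc, Mcidas and Ccno, which act upstream in the formation of many basal bodies, changed by -2.91, -1.07 and -0.61. Ccno lost its call in 3 of the 26 alternatives, with adjusted p of 0.0836 in thinned counts, 0.062 without MHCIIlo replicates 1 and 4 and 0.0549 by limma-voom. Gmnc was low throughout, at 3.59, 2.86, 3.24 and 2.81 CPM in RFP+ MHCIIhi and 0.108, 0.122, 0.831 and 0.497 CPM in RFP+ MHCIIlo. Dnaic2, a dynein arm gene, fell with them (-1.12).

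Microfold cell genes were mostly higher. Microfold cells are gut epithelial cells that pass antigens to underlying lymphoid tissue. Of 13 genes, 10 rose and 2 fell, with a median of 0.83. Gp2 (ENSMUSG00000030954, chr7:119442537-119459285), their uptake receptor for bacteria, was at 311, 318, 321 and 266 CPM in RFP+ MHCIIhi and at 1057, 1013, 983 and 959 CPM in RFP+ MHCIIlo, with a change of 1.72 ± 0.09 (SE), adjusted p = 5.86e-13. Sox8, a factor needed for their maturation, changed by 1.88 and Pglyrp1, a peptidoglycan recognition protein, by 1.46. Marcksl1, also used as a marker, fell from 338, 312, 292 and 363 CPM to 110.5, 143, 148 and 189.7 CPM (-1.14).

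Other peripheral programmes held genes that moved both ways. Of 23 neuroendocrine genes, 11 rose and 5 fell. The granule proteins Chga, Chgb and Scg2 changed by 0.88, 1.77 and 1.42, Snap25, of the release machinery, by 1.88 and Rfx6, an islet factor, by 1.96. Neurod1 (1.44 and 2.54 CPM on average) did not pass the test, whereas the early factor Insm1 (-1.57) and the granule peptide gene Vgf (-3.38) fell. Syt4 was read at 4.21, 4.14, 3.73 and 3.58 CPM in RFP+ MHCIIhi and at 0, 0, 0.104 and 0 CPM in RFP+ MHCIIlo, where 3 libraries had no read. Of 16 ionocyte genes, 4 rose and 5 fell, close to the shares of all tested genes in both directions, with Hepacam2 up from 50.1 to 234 CPM (2.22), Coch down from 62.6 to 3.49 CPM (-4.19) and the lineage factor Foxi1 at -0.78. Hepacam2 is also known from tuft cells. Ascl3, another factor of the lineage, was at 7.02, 1.71, 1.25 and 2.40 CPM in RFP+ MHCIIlo, and its change of 1.55 was not called without replicate 1 (0.78, adjusted p = 0.159). Cftr (43.6 and 44.9 CPM in MHCIIhi and MHCIIlo) and Atp6v1b1 (1.67 and 1.74 CPM) did not pass the test.

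Gut genes also moved both ways, though 51.6% of the intestinal and digestive list fell, against 28.1% of all tested genes. Of 18 goblet and mucin genes, 8 rose and 6 fell: Spdef, the goblet factor, changed by 1.40, Muc5b by 1.71 and Muc2, the main gut mucin, by -0.87, and Fcgbp, a mucus protein, fell from 2898, 2795, 2665 and 2756 CPM to 1081, 1145, 1262 and 1285 CPM (-1.22). Of 31 intestinal and digestive genes, 7 rose and 16 fell, with a median of -0.51. Their sums overlapped, at 6120 to 6765 CPM in RFP+ MHCIIhi and 5490 to 7933 CPM in RFP+ MHCIIlo. Alpi, intestinal alkaline phosphatase, fell most (-3.75), Apoa4 changed by -0.59, and Spink1 (0.63) rose. Reg3g (0.29) and Fabp1 (0.34) had overlapping groups and were not called when single libraries were left out, with adjusted p up to 0.0913 for Fabp1. Of 20 transcription factors of gut and liver, 9 rose and 5 fell: Prox1 (2.05), Sox9 (1.36), Foxa3 (0.85) and Hnf4a (0.50) rose, and Gata4 (-1.89) and Cdx1 (-1.36) fell. In counts thinned to equal depth Foxa3 (0.59, adjusted p = 0.0572) and Hnf4a (0.41, adjusted p = 0.123) were not called. Hnf4g, at 41.8 and 42.8 CPM on average, did not pass the test.

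Genes of the basal epithelial layer and of immature mTEC rose only in part. Of 20, 10 rose and 3 fell, with a median of 0.31. Krt5, a basal keratin, was at 312, 252, 258 and 255 CPM in RFP+ MHCIIhi and at 478, 469, 476 and 458 CPM in RFP+ MHCIIlo (0.81 ± 0.11 (SE), adjusted p = 7.47e-07), and Igfbp5, a secreted binding protein of insulin-like growth factors, rose most (234 to 794 CPM, 1.76). Col17a1 and Itga6, of the hemidesmosome that anchors basal cells, changed by -1.49 and -0.63. Krt14, the partner of Krt5, had means of 116 and 97.5 CPM in MHCIIhi and MHCIIlo with an adjusted p of 0.0548, though 15 of the 26 alternatives called it lower, and the basal factor Trp63 (119 and 117 CPM) and Pdpn (6.93 and 8.47 CPM) did not pass the test either. Of 22 Notch pathway genes, 10 rose and 5 fell, with the ligand Jag2 (2.04), the ligand Jag1 (0.30), the receptor Notch3 (1.30) and the target Hes1 (0.73) up and the ligand Dll4 (-1.98) down. Jag1 was not called without RFP+ MHCIIlo replicates 1 and 4 (0.24, adjusted p = 0.0787) or without the filter (0.23, adjusted p = 0.0629).

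The remaining largest risers are known from varied settings. Slitrk6, a synaptic adhesion gene, was at 41.8, 34.0, 35.4 and 31.6 CPM in RFP+ MHCIIhi and at 315, 212, 243 and 235 CPM in RFP+ MHCIIlo. Slit2, a guidance ligand, changed by 2.82, Col4a4, a basement membrane collagen, by 2.85, Fat3, a giant protocadherin, by 2.75, Sh2d7 by 2.81 and Lrmp by 2.79. RFP+ MHCIIlo replicate 1 was the highest of the RFP+ libraries for each of these 6 genes. Others of the largest rises were Dclk1, a kinase gene used as a tuft marker (3.01), Cd177 (3.01), Tas2r108 (2.99), Tspan6 (2.97) and Itprid1 (2.97).

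**Figure D3:**
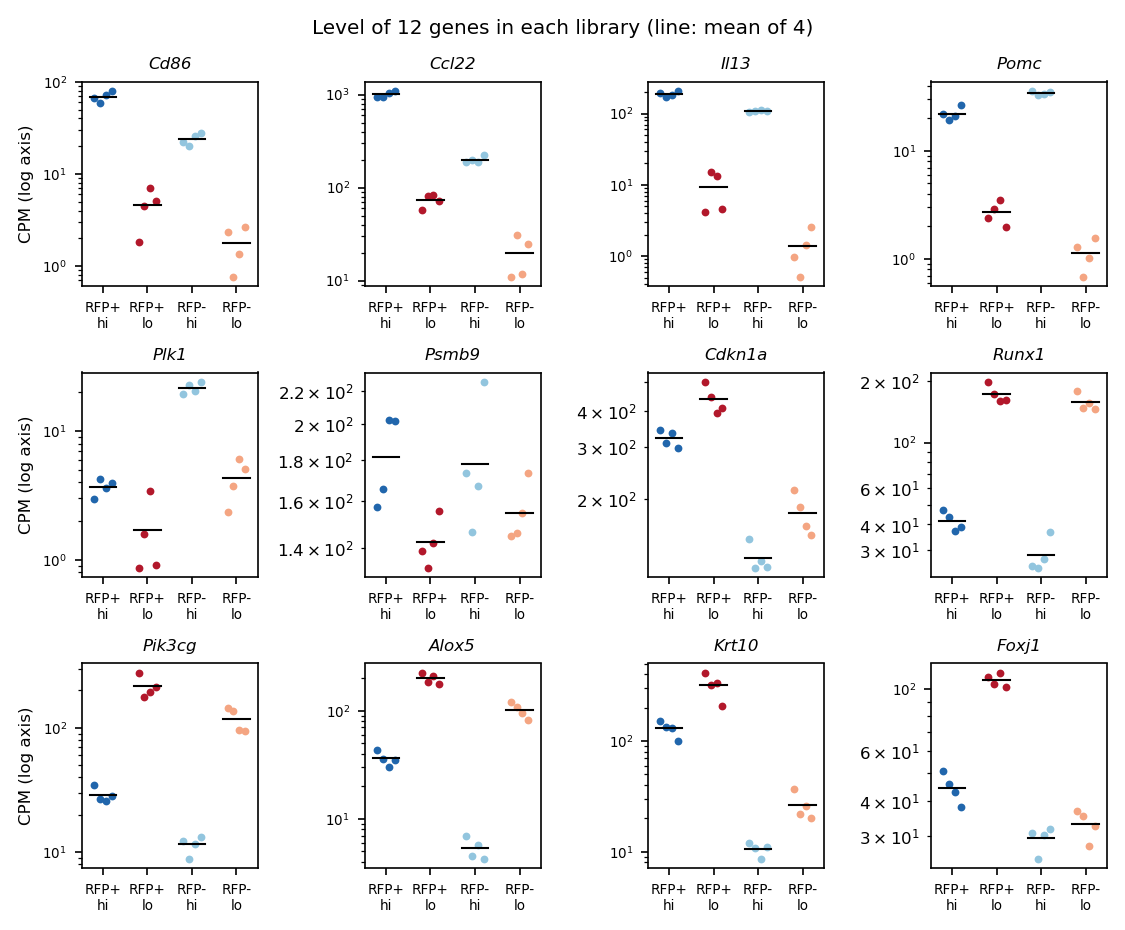
CPM on a log axis of 12 genes in each of the 16 libraries (x axis: population; points: replicates 1 to 4 from left to right; line: mean of 4). Cd86, Ccl22, Il13 and Pomc lie lower in RFP+ MHCIIlo than in RFP+ MHCIIhi with no overlap, and Runx1, Pik3cg, Alox5, Krt10, Foxj1 and Cdkn1a lie higher; Plk1 overlaps between the RFP+ groups (2.96 to 4.26 CPM in MHCIIhi and 0.864 to 3.43 CPM in MHCIIlo).

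The same gate was read in RFP- cells. There 6563 genes were higher in MHCIIlo (33.5%) and 6989 lower (35.6%). Both contrasts called 3912 genes higher and 4382 lower, and 611 were called in opposite directions. The difference of the gate effects, RFP+ minus RFP-, passed an adjusted p of 0.05 in the direction higher for 3438 genes (17.5%) and lower for 3254 (16.6%). With mitochondrial and ribosomal RNA genes left out before scaling it was called higher for 2959 and lower for 3739. Mitochondrial ribosomal RNA ranged over 32.338 to 35.757% of reads in RFP- MHCIIhi libraries and over 39.16 to 45.888% in RFP- MHCIIlo libraries, and its part was not tested. The 2 contrasts share no library.

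Members of several lists differed between labelled and unlabelled cells in that test. Counts for the difference stand against 17.5% higher and 16.6% lower among all tested genes. Counts within RFP- cells stand against 33.5% and 35.6%. For 35 of 42 cornified envelope genes the difference was called higher, and the list's median change was 0.37 in RFP+ and -1.88 in RFP- cells. Lor had a change of 1.83 in RFP+ cells and of -0.54, which did not pass the test, in RFP- cells, a difference of 2.37 ± 0.46 (SE), adjusted p = 0.000305. For 23 of 27 motile cilia genes it was also higher, with medians of 1.33 and 0.07, and Foxj1 differed by 1.11 ± 0.14 (SE), adjusted p = 2e-06. The difference was likewise called higher for 9 of 11 Aire-dependent antigens, 18 of 30 peptide hormones and 16 of 21 mitotic genes, whose median changes were lower in RFP- cells. The mitotic medians were -1.36 in RFP+ and -2.52 in RFP- cells.

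For most interferon response and class I genes the difference ran the other way. For 19 of 20 interferon response genes the difference was called lower. In RFP+ cells 7 rose and 8 fell, with a median of 0.00, against 16 and 3 in RFP- cells with a median of 1.47. Isg15 changed by 0.39 in RFP+ and 2.40 in RFP- cells, Irf7 by 1.13 and 2.75 and Ifit1 by -0.91 and 0.90, and Ifit2 fell most within the label (-2.27). Isg15 was not called in RFP+ cells without MHCIIlo replicates 1 and 4 (0.24, adjusted p = 0.135). Of the 17 class I genes 12 differed in the same direction, as did 14 of 20 basal genes, among them Krt5 (0.81 and 2.83). Of the tuft regulators 12 of 25 differed lower and 7 higher. Avil rose further in RFP- cells (2.63 in RFP+ and 3.98 in RFP-) and Hmx3 in RFP+ cells (2.26 and 0.80). The other tuft lists leaned to a larger rise in RFP- cells. Of 11 taste transduction genes 7 differed lower and 1 higher, with median changes of 2.34 in RFP+ and 3.65 in RFP- cells. Of 18 tuft effector and receptor genes 8 differed lower and 1 higher.

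**Figure D4:**
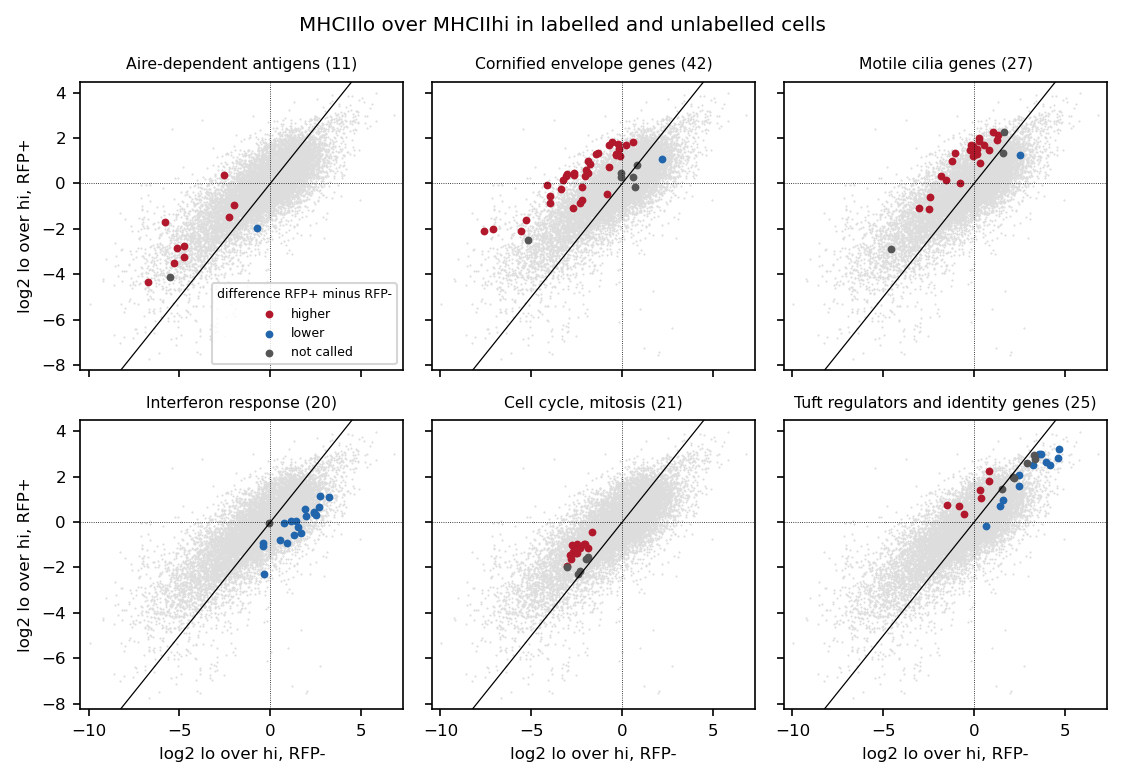
Log2 fold change of MHCIIlo over MHCIIhi in RFP- cells on the x axis and in RFP+ cells on the y axis, for all tested genes (grey) and for the members of 6 lists, coloured by the test of the difference RFP+ minus RFP-; the diagonal marks equal change. Cornified envelope (35 of 42) and motile cilia genes (23 of 27) lie mostly above the diagonal, and interferon response genes (19 of 20) below it.

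The largest single differences are given next. Endou, a poly(U)-specific endoribonuclease gene, was at 7.01, 6.77, 5.54 and 9.26 CPM in RFP+ MHCIIhi and 26.6, 20.8, 23.4 and 14.2 CPM in RFP+ MHCIIlo, and at 11.4, 11.6, 19.0 and 26.7 CPM in RFP- MHCIIhi and 1.70, 2.29, 1.79 and 1.72 CPM in RFP- MHCIIlo. It thus rose within the label and fell outside it, a difference of 4.75 ± 0.38 (SE), adjusted p = 1.27e-09. Mucl2 (4.12), Klk5 (3.69) and S100a9 (3.68), a calcium-binding protein of neutrophils and stressed keratinocytes, fell on both sides but less in RFP+ cells. In the other direction Serping1, which encodes the C1 inhibitor, changed by -1.49 in RFP+ and 2.87 in RFP- cells and Igfbp6 by -3.11 and 1.17. Mesenchymal genes moved with them in RFP- cells, where 8 of 10 were higher in MHCIIlo and their sum was 198.5 to 200.8 CPM in MHCIIhi and 737.6 to 1323 CPM in MHCIIlo. RFP- MHCIIlo replicate 3 had the highest mesenchymal sum and the highest levels of Serping1 (197.6 CPM), Igfbp6 (95.1), Cav1 (178.1) and Upk3b (122.8). The part of mesenchymal cells in these differences was not tested. Cav1, Upk3b, Scgb3a1 and Pth rose in RFP- cells (3.86, 3.42, 3.06 and 4.92) and had RFP+ changes that did not pass the test, with adjusted p of 0.171, 0.382, 0.161 and 0.375. The rise of Scgb3a1 rests on 1 library, with 3.29, 3.55, 4.22 and 4.36 CPM in RFP- MHCIIhi and 116, 5.94, 4.61 and 3.35 CPM in RFP- MHCIIlo. Without that library, replicate 1, the difference was -1.83 (adjusted p = 0.001) and Scgb3a1 was called lower in RFP+ cells (-1.56, adjusted p = 6.2e-05). Upk3b was called lower in RFP+ cells without MHCIIlo replicate 3 (-1.80, adjusted p = 0.0289), and Cav1 without RFP- MHCIIlo replicate 3 (-0.54, adjusted p = 0.045). Pth, the parathyroid hormone gene, had 0.864, 0.366, 32.2 and 0.249 CPM in RFP+ MHCIIlo, and without replicate 3 it was called lower in RFP+ cells (-4.89, adjusted p = 4.52e-06).

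Markers of other cell types were read in the same libraries. In bulk samples fewer cells of a type and less RNA per cell cannot be told apart. Epithelial genes were high on both sides, Epcam of the gate at 519.7 ± 32.2 CPM in MHCIIhi and 594 ± 18.8 CPM in MHCIIlo and the keratin gene Krt8 at 263 ± 23.8 CPM in MHCIIhi and 281 ± 11.2 CPM in MHCIIlo. Krt19 rose most (1.46), Krt18 changed by 0.54 and Cldn7, a junction gene, by -0.32. Of 16 thymocyte genes, 1 rose and 6 fell, with summed levels of 195.2 to 292.1 CPM in RFP+ MHCIIhi and 75.31 to 192.7 CPM in RFP+ MHCIIlo. Without RFP+ MHCIIlo replicates 1 and 4, 3 of them fell. Cd2 fell from 2.65, 2.86, 2.74 and 2.67 CPM to 0.432, 1.71, 1.04 and 0 CPM, and Themis rose (0.88). The defining genes Cd3e (9.80 and 7.28 CPM in MHCIIhi and MHCIIlo), Rag1 (17.3 and 15.1 CPM) and Ptcra (0.822 and 0.344 CPM) did not pass the test, and Ptcra had no read in at least 1 library. The list dropped far more among RFP- cells (16 of 16 fell, median -3.42), and Cd8a and Cd8b1 were among the largest differences between the contrasts, at 3.63 and 3.79, with RFP- means of 58.6 and 3.33 CPM for Cd8a in MHCIIhi and MHCIIlo. Of 16 myeloid and dendritic cell genes, 1 rose and 11 fell, with sums of 743.8 to 773.6 and 205.5 to 308.5 CPM. Lyz2 had 526 ± 11.1 CPM in MHCIIhi and 137 ± 22.6 CPM in MHCIIlo, the macrophage gene Csf1r changed by -1.15, C1qa by -1.60 and Fcer1g by -3.57, and Itgam rose (0.37). Without RFP+ MHCIIlo replicates 1 and 4 C1qa was not called (-0.68, adjusted p = 0.158). Itgax (1.66 and 1.83 CPM on average) did not pass the test.

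Sums of the remaining marker lists moved in different ways. B cell genes summed to 109.9 to 236.5 and 51.54 to 192.5 CPM (5 of 8 fell), with Ighm at 60.1 and 25.1 CPM on average. Erythroid genes summed to 9.682 to 12.86 and 3.116 to 5.119 CPM (4 of 4 tested fell, and 2 were too low to test). Of these Alas2 had 5.63 and 3.30 CPM on average. Hba-a1, an adult globin, was at 1.25, 0.933, 1.70 and 1.68 CPM in RFP+ MHCIIhi and had a single read over the RFP+ MHCIIlo libraries. It passed the filter through other libraries, so the count of 4 carries little weight. Endothelial genes were higher in sum in every MHCIIlo library, at 34.35 to 39.91 and 40.71 to 54.13 CPM. Most members went the other way, as of 9 tested 1 rose and 5 fell, with a median of -1.33. Of these Tek rose (1.42), and Pecam1 and Cdh5 fell (-1.41 and -1.88). Mesenchymal genes summed to 152.4 to 178.2 and 108.5 to 221.4 CPM, with Tagln (1.38) and Pdgfra (1.19) up and Pdgfrb (-1.82) down. Cortical epithelial genes summed to 1322 to 1701 and 280.8 to 443.1 CPM, and 9 of 11 fell, among them Psmb11 (-1.69), the proteasome subunit that defines cortical epithelium, Prss16 (-1.51), Ly75 (-1.68) and Ccl25 (-2.41). Foxn1 (-1.59) and Dll4 are on that list too, though mTEC also express Foxn1. The receptor Ackr4 rose (1.97). The part of such cells or of free RNA from them in the falls of cytokine, chemokine and class II genes was not tested. The B cell gene Ms4a1 was at 0 in 3 of 4 RFP+ MHCIIlo libraries and the endothelial gene Cldn5 likewise.

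**Figure D5:**
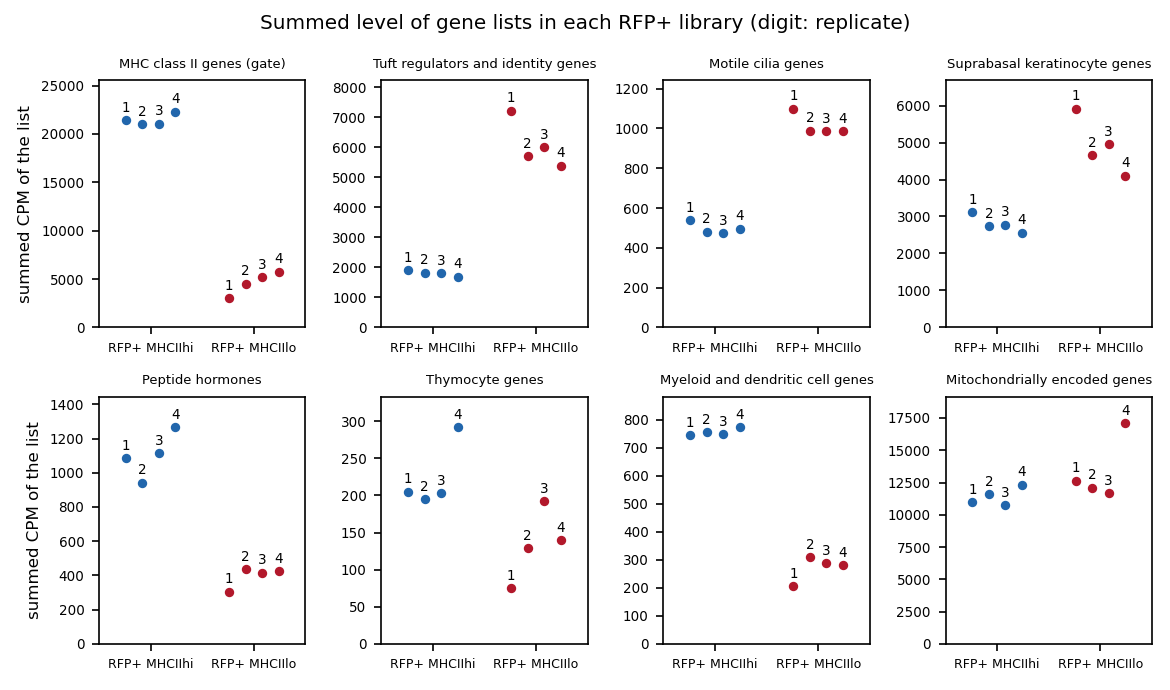
Summed CPM (y axis, from 0) of 8 gene lists in each RFP+ library (x axis: population; digit: replicate). RFP+ MHCIIlo replicate 1 has the lowest class II sum (3018 CPM) and the highest tuft and keratinocyte sums (7212 and 5915 CPM), and replicate 4 the highest mitochondrial sum (17100 CPM).

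The breadth of expression was compared at equal depth, by thinning each library to 7.93 M reads. Thinning does not equalise sorted cells, which numbered 19400 to 20500 for RFP+ MHCIIlo and 129500 to 164000 for RFP+ MHCIIhi. The part of cell number was not tested. RFP+ MHCIIlo libraries held reads for 24665 ± 1590 genes and RFP+ MHCIIhi libraries for 25931 ± 127 (mean ± SD, n = 4 each), a difference of -1266 with p = 0.257 in a two-sided exact permutation test, where 0.0286 is the smallest value possible. Counting genes with at least 10 reads gave 15955 ± 394 against 16805 ± 56.3 (p = 0.0286, exact permutation test), with no overlap. Of all genes, 196 were read in every RFP+ MHCIIhi library and in no RFP+ MHCIIlo library, and 16 the other way round. Of the reads of nuclear genes other than ribosomal RNA, the 100 most abundant genes held 16.741 ± 0.709% in the RFP+ MHCIIlo libraries. In RFP+ MHCIIhi they held 19.212 ± 0.256% (exact permutation p = 0.0286, 0.0572 when adjusted over the 2 measures). With mitochondrial and ribosomal RNA genes counted, the difference turned to 2.278 percentage points in favour of MHCIIlo (p = 0.257, exact permutation test).

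Gene classes shared the changes unevenly. Of 16787 protein-coding genes 27.5% rose and 30.2% fell, with a median of -0.03. Of 433 loci annotated as to be experimentally tested (TEC in GENCODE, unrelated to thymic epithelial cells), 38.3% rose and 6.0% fell, with a median of 0.69. Of 60 sense intronic transcripts 41.7% rose and 5.0% fell, and of 712 antisense transcripts 27.1% rose and 14.3% fell. Whether reads were counted by strand is not known from the labels, and reads of such loci cannot be told apart from reads of the genes they overlap.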

How the data were processed

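RNA-seq was made from poly A RNA of 16 sorted pools in 4 populations, 4 libraries each, amplified with NuGen Ovation V2 and prepared with Nextera XT, per the labels' protocols. The values are read counts per gene as deposited by the authors, not normalised. STAR, DESeq2 and the build GRCm38 are named in the submitters' processing notes, with the counting tool, annotation release and use of strand not given in the sources used here. Of 43432 gene IDs, 42548 matched GENCODE M21, and the 884 without a symbol took at most 0.1177% of the counts of a library in the RFP+ populations.

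Genes passing edgeR's filter (at least 10 counts in enough libraries and 15 in total) were tested with edgeR 4.0.16 in R 4.3.3: TMM scaling, 1 mean per population over all 16 libraries, quasi-likelihood F tests and Benjamini-Hochberg adjustment at 0.05 over all 19617 genes. CPM (counts scaled to a common library total with TMM factors) were used as levels. No gene length enters them, so levels were compared between libraries and not between genes. The same fit gave the contrast of RFP- cells and the difference of the contrasts. SE is the log2 change divided by the square root of F. Breadth was compared with a two-sided exact permutation test over 4 against 4 libraries. The fit was also run on simulated counts in which few genes were changed, unlike here, so that run cannot check the scaling in these data. Alternatives used DESeq2 1.42.0, limma 3.58.1 (voom), other filters and scalings, thinned counts, a replicate block and left-out libraries. No 2 libraries of an RFP+ population agreed within sampling noise, and RFP- libraries were not examined for this.

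The comparison and the 44 gene lists were chosen with earlier results of these data known. Genes are named by rule: the 15 largest called changes per direction among genes whose libraries did not overlap and whose higher mean reached 20 CPM, the 6 largest differences per direction between RFP+ and RFP- cells, and the first 4 genes and largest called rise and fall of each list. Predicted genes and receptor segments were passed over. Further list members are examples chosen after their values were seen. List members that were too low to test enter no count. Some list members are not reported here by name.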

Additional observations from a re-analysis of the deposited data

Results flagged for a closer look

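In groups of 4 libraries, a library was singled out where its gap to the nearest other was large for the range of the group. Of 182 groups of levels and sums examined, 14 held such a library, 7.69%, and chance alone does so in about 1 of 20 groups. RFP+ MHCIIlo replicate 1 was apart for Gnat3 (550.7 CPM against 378.5 to 403.1 in the other 3), Cav1 (2.161 against 4.022 to 4.146), the summed peptide hormones (304.6 against 416.9 to 435.8), the summed motile cilia genes (1099 against 985.7 to 989.1) and the summed endothelial genes (54.13 against 40.71 to 42.9). RFP+ MHCIIhi replicate 4 was apart for Idi2 (22.88 CPM against 20.5 to 20.85), Cav1 (4.28 against 5.456 to 5.652), Cd8a (15.72 against 7.991 to 9.042), Cd8b1 (8.842 against 3.896 to 4.599), the summed thymocyte genes (292.1 against 195.2 to 204.9), the summed lysosomal genes (2944 against 2591 to 2647) and the summed skin lipid genes (608.0 against 666.4 to 677.7). Pth stood at 32.2 CPM in RFP+ MHCIIlo replicate 3 against 0.2488 to 0.8644 in the others. Mitochondrially encoded messenger RNA took 1.595% of reads in RFP+ MHCIIlo replicate 4 against 1.19 to 1.251%.

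The effect of the gate differed between RFP+ and RFP- cells, by the test of the difference itself, in the direction higher for 3438 genes and lower for 3254. The largest log2 differences upward among genes of at least 20 CPM were those of Endou (4.75), Mucl2 (4.12), Cd8b1 (3.79), Klk5 (3.69), S100a9 (3.68) and Cd8a (3.63). The largest downward were those of Pth (-5.67), Scgb3a1 (-4.62), Cav1 (-4.40), Serping1 (-4.36), Igfbp6 (-4.29) and Upk3b (-4.05). Without RFP- MHCIIlo replicate 1 the difference of Scgb3a1 was -1.83. Cd8a and Cd8b1 encode a co-receptor of thymocytes, and all 16 thymocyte genes fell among RFP- cells. Whether thymocyte RNA takes part in these values was not tested.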

How the results depend on the processing

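Over 26 alternatives the genes called higher numbered 4743 to 5467 (5393 in the report) and those called lower 4690 to 6354 (5507), and the share of higher among called genes stayed between 44.8 and 50.8%. Over 23 alternatives the difference between RFP+ and RFP- cells was called higher for 2882 to 3759 genes and lower for 2992 to 3739. No label says whether equal replicate numbers share a pool, and libraries were treated as unpaired. Deviations of same-numbered RFP+ libraries correlated at 0.063, 0.033, -0.008 and 0.088, and those of other pairs at -0.105 to 0.039. Such weak correlations cannot tell whether the numbers pair the pools. With a replicate block 5416 and 5649 genes were called, and 3543 and 3376 for the difference. Leaving out RFP+ MHCIIlo replicates 1 and 4 together left 4955 and 5325 genes called. In that setting and with limma-voom 3 of the 6 thymocyte genes that fell were called. Pth reversed to 0.26 in RFP+ cells without these libraries (adjusted p = 0.742), and the difference for Scgb3a1 was not called by limma-voom (-2.82, adjusted p = 0.102). The difference in detected genes was -850 with at least 10 reads, where it passed the test. With 1 library left out it ranged from -730.7 to -1887 and passed only without RFP+ MHCIIlo replicate 4. The share of the 100 most abundant genes differed by 2.278 points in the other direction with all genes counted, and by -2.241 to -2.758 with 1 library left out. The causes were not tested. Depth limits genes near 1 CPM, where a library of 7.93 M reads holds few reads.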
